A study of Homo sapiens with 6 samples.

Results

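FLNA, AHNAK and ANXA1 encode proteins that join the plasma membrane to the actin network beneath it. They are 3 of the 1877 genes in the deposited table, picked by their symbols from genes that the authors had selected on their difference between RNF5 knockdown and control libraries. The members were therefore chosen by the same values that are described here. No test of the knockdown difference is given for any of the 3, and nothing is supported with it. The smallest absolute log2 fold change in the authors' deposited table was 1.0 and the largest adjusted p-value was 0.0499.

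The tested libraries (n = 3) came from LP-1 cells, an established human multiple myeloma line, in which a short hairpin RNA had depleted RNF5, a ubiquitin ligase of the endoplasmic reticulum membrane. The control libraries (n = 3) came from the same line carrying a non-target control. Cells of both groups were grown in the same medium with 15% serum, and no drug is named for either. The sources used here name neither the hairpin nor the time of harvest. They do not say either that libraries of a group came from separate cultures, so p-values below measure only the spread between these libraries, which may be technical.

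The cortical skeleton is a thin mesh of actin filaments under the plasma membrane that carries tension and holds receptors in place. Filamin A, the product of FLNA, is a long homodimer that crosslinks actin filaments and binds the cytoplasmic tails of integrins. AHNAK, also known as desmoyokin, is a very large scaffold that lies under the membrane through the complex of S100A10 with annexin A2. Annexin A1, the product of ANXA1, binds acidic phospholipids in the presence of calcium, is induced by glucocorticoids in leukocytes, and acts outside the cell through formyl peptide receptors.

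In the GENCODE 29 annotation FLNA (ENSG00000196924) lies on the minus strand of chromosome X. Its longest transcript has 48 exons and 8516 bases. AHNAK (ENSG00000124942) lies on the minus strand of chromosome 11. Its longest transcript has 18787 bases in 5 exons, of which 1 exon of 18170 bases makes up 96.7%. ANXA1 (ENSG00000135046) lies on the plus strand of chromosome 9, with a longest transcript of 2209 bases in 12 exons. FLNA overlaps 1 annotated gene on the opposite strand and AHNAK overlaps 2, while ANXA1 overlaps none. Overlap was taken over whole gene spans, not over exons. The sources used here do not say whether counting used strand, so whether reads of these overlapping genes were counted for FLNA and AHNAK is unknown.

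The stretches just upstream of the RefSeq start of each gene are shown because FLNA and AHNAK were higher in the knockdown and ANXA1 was lower, and their letters differ in kind. All 3 genes matched the RefSeq table, which is on GRCh38.p14, whereas the authors' notes name hg19. Each run holds 250 bases, read 5′ to 3′ on the gene's strand and ending 1 base before the start. Capitals mark a CArG box (the core of serum response factor sites) in FLNA, the letters GGGCGG on either strand in AHNAK, and TATAAA in ANXA1. FLNA is at chrX:154374635-154374884 on the minus strand, AHNAK at chr11:62545827-62546076 on the minus strand and ANXA1 at chr9:73151615-73151864 on the plus strand.
FLNA: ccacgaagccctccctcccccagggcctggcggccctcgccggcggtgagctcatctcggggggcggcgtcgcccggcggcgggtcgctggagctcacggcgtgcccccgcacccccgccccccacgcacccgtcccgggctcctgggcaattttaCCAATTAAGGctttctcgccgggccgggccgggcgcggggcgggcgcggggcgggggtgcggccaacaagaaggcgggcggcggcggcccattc
AHNAK: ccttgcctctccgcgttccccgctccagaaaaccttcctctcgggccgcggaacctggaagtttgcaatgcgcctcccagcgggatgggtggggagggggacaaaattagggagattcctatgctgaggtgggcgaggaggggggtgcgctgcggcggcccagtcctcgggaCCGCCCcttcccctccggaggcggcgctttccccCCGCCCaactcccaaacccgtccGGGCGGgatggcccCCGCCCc
ANXA1: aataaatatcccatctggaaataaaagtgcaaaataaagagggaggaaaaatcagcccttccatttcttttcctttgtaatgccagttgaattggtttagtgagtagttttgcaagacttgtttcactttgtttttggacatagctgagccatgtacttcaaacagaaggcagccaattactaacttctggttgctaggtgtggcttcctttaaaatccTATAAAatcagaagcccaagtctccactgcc

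The FLNA and AHNAK stretches were rich in G and C, at 78.4% and 70.0%, with 35 and 22 CpG pairs. The ANXA1 stretch was at 38.4% with 0 CpG pairs. The median over 35114 RefSeq windows of the same length was 58.0% with 11 CpG pairs. Windows with a lower G and C share than FLNA made up 94.8% of all, than AHNAK 79.3% and than ANXA1 10.1%. The CArG box in FLNA spans bases 94 to 85 before the start, and 1.16% of all windows hold such a box on either strand. It was not found in the AHNAK or ANXA1 window. GGGCGG stood at 5 places in the FLNA window, at 4 in AHNAK and at 0 in ANXA1, against 42.6% of all windows with at least 1 match on either strand. TATAAA stood 31 to 26 bases before the ANXA1 start and in neither of the other 2 windows, against 10.7% of all. Heat shock letters (TTCNNGAA, in 6.62% of windows, or GAANNTTC, in 5.78%) and GGAATG (in 11.9%), the core of TEAD sites, were in none of the 3 windows on either strand. These motifs were picked after the values had been seen, and matches are letters only.

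The deposited values per library are normalized, on a scale that the sources used here do not name. Whether they are divided by gene length is unknown, so the levels of different genes are not compared. RNF5 itself had 95.4, 81.4 and 88.4 in the knockdown libraries, against 1595, 1649 and 1248 in the control libraries, so 5.90% of the control mean was left. The values of all listed genes summed to between 116843 and 122079 in the knockdown libraries, against between 90825 and 93975 in the control libraries. Those sums cover selected genes and are no depth, which is unknown, and no counting interval can be given. Control library 3 stood apart from the other controls: over 431 genes with both group means of at least 5, its value was a median 0.770 of the mean of controls 1 and 2 (quartiles 0.650 and 0.961). Fold changes below are given with and without that library.

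FLNA was higher in the knockdown, with no overlap between the groups. Its normalized value was 1248, 1324 and 1404 in the knockdown libraries, against 585, 602 and 279 in the control libraries. The knockdown libraries lay close together, whereas control 3 stood well below controls 1 and 2. The lowest knockdown value was 2.07 times the highest control value. The means were 1325 ± 78.2 in the knockdown and 489 ± 182 in the control (SD, n = 3 each), a ratio of 2.71, or 2.23 without control 3. On the log2(value + 1) scale the fold change was 1.52 (SE 0.25). The authors' deposited table gives a log2 fold change of 1.32 for FLNA.

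AHNAK had the same direction and nearly the same size. Its normalized value was 224, 271 and 239 in the knockdown libraries, against 118, 100 and 60.7 in the control libraries. The groups did not overlap, and control 3 was again the lowest library. The lowest knockdown value was 1.89 times the highest control value. Means were 245 ± 24.3 in the knockdown and 92.9 ± 29.4 in the control (SD, n = 3 each), a ratio of 2.63, or 2.24 without control 3. The log2 fold change on the log2(value + 1) scale was 1.43 (SE 0.22), and the authors' deposited table gives 1.33.

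ANXA1 went the other way. Its normalized value was 1.01, 0.79 and 0.39 in the knockdown libraries, against 8.44, 6.88 and 5.54 in the control libraries. The groups did not overlap, and the lowest control value was 5.49 times the highest knockdown value. Means were 0.730 ± 0.314 in the knockdown and 6.95 ± 1.45 in the control (SD, n = 3 each), so 10.5% of the control mean was left, a 9.53-fold difference, or 10.5-fold without control 3. The log2 fold change was -2.20 (SE 0.21) on the log2(value + 1) scale, which understates low values, and -3.25 as the ratio of the means. The authors' deposited table gives -3.56. ANXA1 entered the fit through its control values, since 1 knockdown library reached the minimum value of 1.

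**Figure D1:**
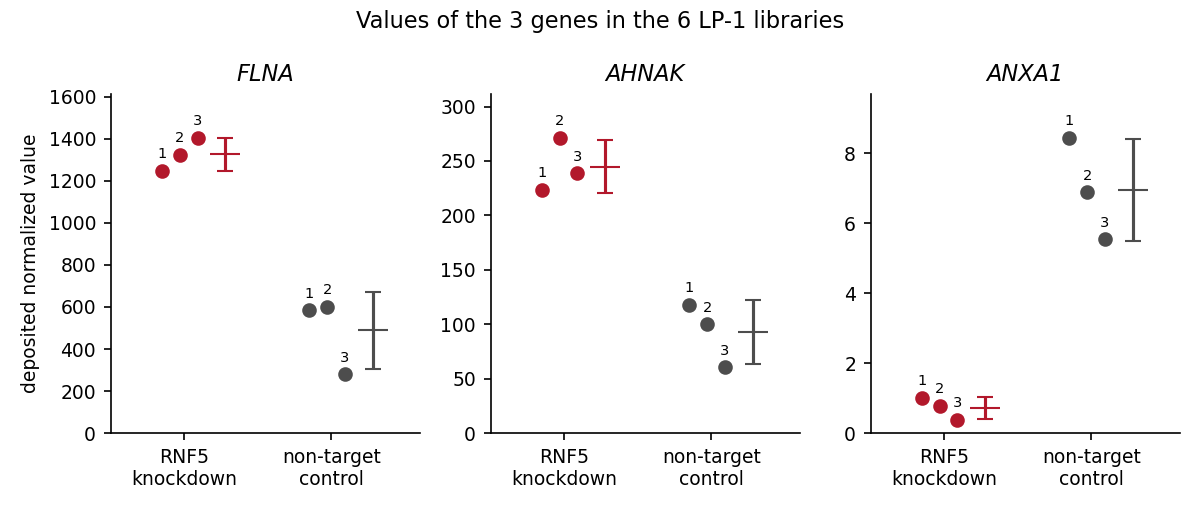
Deposited normalized values (vertical axes, linear from 0, a scale of its own for each gene) of FLNA, AHNAK and ANXA1 in the 3 RNF5 knockdown and the 3 non-target control libraries. Points are libraries with their replicate number, bars are mean ± SD (n = 3); FLNA and AHNAK are higher and ANXA1 is lower in every knockdown library than in any control library, and control 3 is the lowest control for each gene.

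Among all listed genes 93.2% had groups that did not overlap, so that the 3 genes share this with nearly the whole authors' selection. By absolute log2 fold change in the authors' deposited table, AHNAK ranked 516 and FLNA 520 of the 924 genes listed as higher, whose median was 1.39. ANXA1 ranked 148 of the 953 listed as lower, whose median was -1.70. FLNA and AHNAK thus stood close to the middle of the genes listed as higher, and ANXA1 nearer the top of those listed as lower.

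The spread between libraries differed by group as well. The coefficient of variation of FLNA was 5.90% in the knockdown and 37.2% in the control, and that of AHNAK was 9.95% in the knockdown and 31.6% in the control. Over the 431 genes with both means of at least 5, the median was 8.82% in the knockdown and 20.6% in the control. ANXA1 had 43.1% in the knockdown, where it was near the bottom of the scale, and 20.9% in the control. Most of the control spread of FLNA and AHNAK lay in library 3. There FLNA was at 0.470 and AHNAK at 0.556 of the mean of controls 1 and 2. Of the 431 genes, 18 had a lower ratio than FLNA and 51 a lower one than AHNAK. ANXA1 was at 0.723, and 217 of 522 genes with a control mean of at least 5 were lower (median 0.771). Without control 3, the log2 fold change was 1.16 for FLNA (SE 0.08), 1.16 for AHNAK (SE 0.11) and -2.33 for ANXA1 (SE 0.20).

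Transcript length moved with these values. The 868 protein-coding genes that were tested and had a length were put into 5 groups by their longest transcript. In the shortest group (207 to 2010 bases, 174 genes) the median log2 fold change was -0.83 and limma called 30.5% of genes higher. In the longest (5835 to 27748 bases, 174 genes), which holds FLNA and AHNAK, the median was 0.75 and 56.3% were called higher. ANXA1 belongs to the second group (2018 to 2842 bases, 173 genes), with a median of -0.72 and 37.0% called higher. Only 5 of the 868 genes were longer than AHNAK and 71 were longer than FLNA. Across these genes, which are not independent replicates, Spearman's rho between length and log2 fold change was 0.205, or 0.138 without control 3. Over all 1186 tested genes with a length, non-coding ones included, it was 0.026.

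Control 3 changed with length too. Its median ratio to the mean of controls 1 and 2 was 1.05 in the shortest group and 0.667 in the longest, among genes with a control mean of at least 5 (99 and 75 genes). Across 408 genes with both means of at least 5, Spearman's rho between length and this ratio was -0.475. With the length trend over protein-coding genes removed, the log2 fold change was 1.197 for FLNA (SE 0.24), 0.84 for AHNAK (SE 0.22) and -2.05 for ANXA1 (SE 0.21). All 3 directions stayed, and AHNAK lost the most. That correction was chosen after the data were seen. The planned one removed the length trend over all 1186 tested genes with a length. It gave 1.49 for FLNA (SE 0.25), 1.39 for AHNAK (SE 0.22) and -2.20 for ANXA1 (SE 0.21), so the loss of AHNAK depends on the genes used for the trend. The part that transcript length has in these differences was not tested beyond those values.

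**Figure D2:**
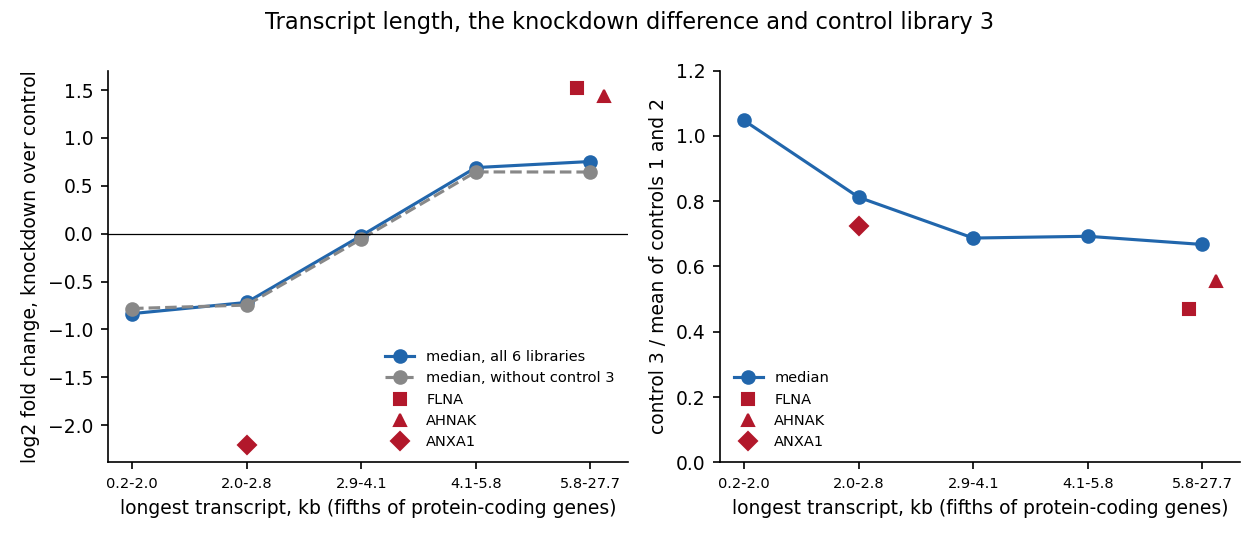
Left, median log2 fold change of protein-coding genes (RNF5 knockdown over control) in 5 groups of transcript length, with all libraries and without control 3; right, median ratio of control 3 to the mean of controls 1 and 2 in the same groups (linear axis from 0). Red symbols are FLNA, AHNAK and ANXA1: FLNA (1.52) and AHNAK (1.43) lie above the median of the longest group (0.75) and ANXA1 (-2.20) lies below that of its own group (-0.72).

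The genes with the nearest profiles were found from log2(value + 1) over the 6 libraries, each centred on its own mean, as the smallest root mean square difference. There were 926 candidates for each member. FLNA lay nearest to the receptor-type tyrosine phosphatase PTPRS (0.052), the talin TLN2 (0.060), the myosin light chain kinase MYLK (0.063) and the actin-severing protein GSN (0.109). The median over all candidates was 0.805. PTPRS, for one, had 74.9, 82.7 and 82.6 in the knockdown libraries, against 37.7, 37.7 and 17.1 in the control libraries. Like FLNA it had a low control 3, which follows from the choice by profile over all 6 libraries. MYLK had 59.3, 65.2 and 60.9 in the knockdown libraries, against 25.2, 27.2 and 12.5 in the control libraries. The longest transcripts of these 4 genes had 6353 to 11880 bases.

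AHNAK lay nearest to BBS1, a subunit of the ciliary BBSome (0.079), the desmosomal plakophilin PKP2 (0.096), the actin-oxidizing enzyme MICAL1 (0.102), the plasma cell receptor GPRC5D (0.102) and the non-coding RNA LINC01873 (0.103). The median over all candidates was 0.758. BBS1 had 39.2, 47.9 and 44.2 in the knockdown libraries, against 22.5, 20.0 and 11.3 in the control libraries. The neighbours of AHNAK had longest transcripts of 1038 to 4381 bases, all shorter than AHNAK itself. AHNAK was 0.148 from FLNA, rank 19 of the candidates for FLNA, and FLNA was rank 30 for AHNAK.

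ANXA1 lay nearest to the interferon-induced IFIT3 (0.118), the oxidative stress gene OSGIN1 (0.142), the aromatase CYP19A1 (0.158), the HSP70 co-chaperone DNAJB1 (0.182) and the cytochrome P450 gene CYP4F11 (0.187). The median over all candidates was 1.41. IFIT3 had 1.24, 1.28 and 0.93 in the knockdown libraries, against 11.8, 9.63 and 8.38 in the control libraries. DNAJB1 had 31.1, 32.6 and 30.6 in the knockdown libraries, against 197, 182 and 132 in the control libraries. FLNA and AHNAK were 1.89 and 1.83 from ANXA1, ranks 849 and 815.

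**Figure D3:**
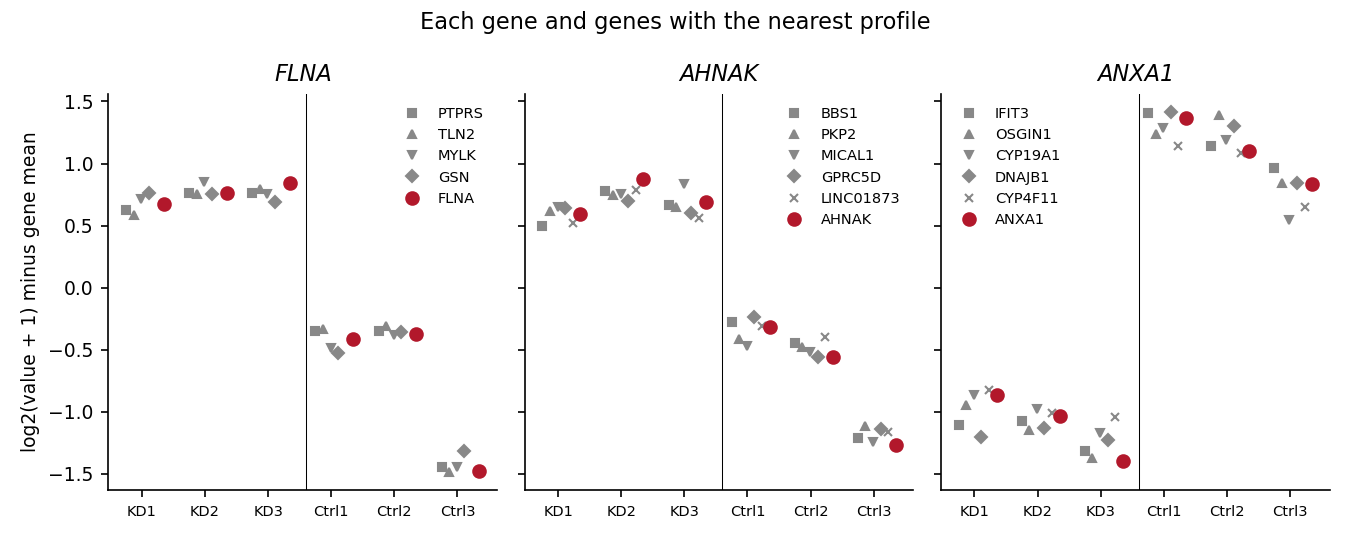
Log2(value + 1) minus the gene's own mean over 6 libraries (vertical axis) for FLNA, AHNAK and ANXA1 (red circles) and genes with the nearest profile to each (grey symbols, 4 for FLNA and 5 for each of AHNAK and ANXA1), with the knockdown libraries left of the line and the controls right of it. For FLNA and AHNAK every neighbour shown is lowest in control 3, which follows from their choice by profile over all 6 libraries.

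Other genes were taken from 14 lists with 225 genes beside the 3 members. Besides lists of membrane skeleton genes, they include targets of serum response factor and YAP, and ANXA1 receptors with glucocorticoid induced genes. Of the 225 genes, 20 were in the authors' table and 12 were abundant enough to test. EGR1, CCN2 and PER1, among the 12, come from those last lists and are not membrane skeleton genes. In limma with Benjamini-Hochberg adjustment, all 12 were called at an adjusted p under 0.05, 9 of them higher and 3 lower. Of all 1290 genes tested 97.7% were called, 55.7% as higher and 42.0% as lower, and every listed gene had been selected for a difference in the same libraries. The limma adjusted p-values given below for list genes therefore describe selected values and support no difference. Of the 12, EGR1, CCN2 and HCLS1 reached the minimum value of 1 in 1 group only, so the filter had fixed their direction and their calls support nothing. The remaining 9 reached it in both groups, 7 of them called higher and 2 lower. Of the 1032 tested genes that reached the minimum in both groups, 54.4% were called higher and 42.8% lower. The median log2 fold change of the 9 was 1.47, or 1.18 without control 3. Over the 1032 genes it was 0.76, or 0.68 without control 3. The authors' selection left no deposited log2 fold change between -1 and 1, so such medians depend on the mix of higher and lower genes. In 17 of the 20 the groups did not overlap, against 93.2% of all listed genes. Of the 9 higher genes, 7 had their lowest control value in library 3, as FLNA and AHNAK did. EGR1 is among these 7, with control values of 0.05, 0.04 and 0.02. The share of such genes over all genes tested is not given here. Control 3 was at a median 0.770 of the mean of controls 1 and 2 over the 431 genes with both means of at least 5. Whether the count is particular to these lists was not tested.

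Both filamin partners that could be tested were called higher, beside the 55.7% called higher among all genes tested. The integrin subunit ITGB7, whose tail filamin binds, rose to 1665, 1703 and 1756 in the knockdown libraries, against 398, 410 and 244 in the controls (log2 fold change 2.32, SE 0.19, limma adjusted p = 2.5e-06), and the log2 fold change was 2.08 without control 3. RFLNB, which encodes refilin B, a regulator of filamin-crosslinked actin, rose to 54.2, 56.8 and 58.5 in the knockdown libraries, against 23.3, 22.7 and 13.8 in the control libraries. Its log2 fold change was 1.49 (SE 0.21, limma adjusted p = 6.62e-05), or 1.26 without control 3. ARHGAP24, a Rac-inactivating protein that filamin A recruits, was too low to test, with 0.28, 0.72 and 0.91 in the knockdown libraries, against 1.62, 1.58 and 0.78 in the control libraries. Its groups overlapped. The other 14 of the 17 filamin partners were not among the listed genes and have no values here.

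In the list of actin crosslinkers, FLNA stood beside 1 other listed gene of the remaining 16. HCLS1, the haematopoietic relative of cortactin, had 0.25, 0.71 and 0.22 in the knockdown libraries, against 1.63, 1.27 and 1.24 in the control libraries. It entered the fit through the controls alone, so no p is given. Its log2 fold change was -1.81 as the ratio of means and -0.79 on the log2(value + 1) scale, or -0.83 without control 3. The paralogue FLNC was not among the listed genes. The table holds only genes selected for a difference, so nothing can be said of genes outside it.

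Besides AHNAK itself, 2 genes of its partner list had values here. AHNAK2, its paralogue, had 0.74, 1.01 and 0.92 in the knockdown libraries, against 0.39, 0.48 and 0.14 in the control libraries. DYSF, a membrane repair protein that binds AHNAK, had 0, 0.04 and 0 in the knockdown libraries, against 0.19, 0.38 and 0.14 in the control libraries. In both genes the groups did not overlap, as in 93.2% of all listed genes, and the values were too low to test. S100A10 and ANXA2, through which AHNAK meets the membrane, were not among the listed genes.

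The lists of adhesion plaque genes and of actin and myosin had 2 tested genes each, and these 4 were called higher, beside the 55.7% called higher among all genes tested. PTK2B, the focal adhesion kinase relative PYK2, rose to 362, 382 and 367 in the knockdown libraries, against 139, 133 and 84.0 in the controls (log2 fold change 1.67, SE 0.19, limma adjusted p = 2.1e-05), or 1.44 without control 3. TLN2, which links integrins to actin, rose to 9.76, 11.1 and 11.4 in the knockdown libraries, against 4.68, 4.76 and 1.55 in the controls (log2 fold change 1.42, SE 0.29, limma adjusted p = 0.000664), or 1.03 without control 3. GSN, which encodes gelsolin, rose to 10.2, 10.1 and 9.60 in the knockdown libraries, against 3.57, 4.12 and 1.64 in the controls (log2 fold change 1.47, SE 0.25, limma adjusted p = 0.000215), or 1.18 without control 3. CORO1A, a leukocyte coronin, rose by a log2 fold change of 1.54 (SE 0.19, limma adjusted p = 2.76e-05), or 1.63 without control 3. CORO1A had 20.4, 16.1 and 18.2 in the knockdown libraries, against 5.50, 4.91 and 6.36 in the control libraries. Unlike FLNA, it had its highest control value in library 3. The untested genes of both lists went in opposite directions. LIMS2, a focal adhesion adaptor, had 0.04, 0.08 and 0 in the knockdown libraries, against 0.39, 0.58 and 0.23 in the control libraries. The unconventional myosin MYO1E had 0.62, 0.84 and 0.79 in the knockdown libraries, against 0.37, 0.43 and 0.18 in the control libraries.

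Of the 14 genes of the dystroglycan complex 1 was listed. The syntrophin SNTB2, an adaptor of the dystrophin complex, fell to 6.19, 7.79 and 7.78 in the knockdown libraries, against 28.9, 21.8 and 20.5 in the controls (log2 fold change -1.58, SE 0.20, limma adjusted p = 3.26e-05), or -1.67 without control 3. SPTB and DMTN, which belong to the red cell type of membrane skeleton, and the intermediate filament gene SYNM were too low to test. None of the 18 S100 genes, the 15 genes of the ezrin family and cortical linkers and the 10 calpain genes was listed.

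ANXA1 was the listed annexin among 13. Of the 14 genes for its receptors and for glucocorticoid responses 1 was listed. PER1, a clock gene that glucocorticoids induce, fell to 8.11, 5.90 and 11.1 in the knockdown libraries, against 30.1, 28.8 and 12.4 in the control libraries. Its log2 fold change was -1.34 (SE 0.32, limma adjusted p = 0.00161), or -1.74 without control 3. Its control 3 lay close to the knockdown values, in contrast to ANXA1. Of the 17 targets of serum response factor and YAP, EGR1 and CCN2 were listed. EGR1, an immediate early transcription factor, had 1.59, 2.12 and 1.77 in the knockdown libraries, against 0.05, 0.04 and 0.02 in the control libraries. CCN2, a secreted matricellular protein, had 1.28, 1.13 and 1.04 in the knockdown libraries, against 0.38, 0.21 and 0.22 in the control libraries. Both entered the fit through the knockdown libraries alone, so no p is given. The pseudocount sets the size of these fold changes. For EGR1 the log2 fold change was 1.44 with a pseudocount of 1, 3.81 with 0.1 and 0.44 with 5, and the log2 ratio of means was 5.64. For CCN2 it was 0.76 with a pseudocount of 1, 1.78 with 0.1 and 0.22 with 5, and for HCLS1 it was -0.79, -1.71 and -0.24 with the same pseudocounts. Without control 3, EGR1 was at 1.43 and CCN2 at 0.73.

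**Figure D4:**
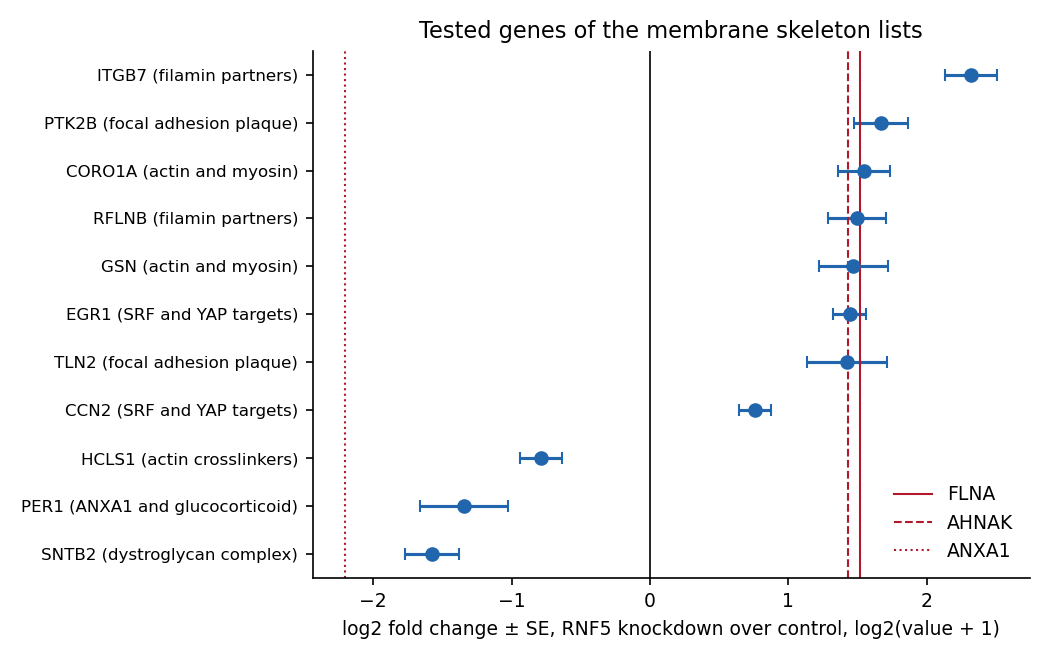
Log2 fold change on the log2(value + 1) scale (horizontal axis, RNF5 knockdown over control, bars are SE, 3 against 3 libraries) of 11 of the 12 tested list genes, with the list in brackets. Red lines mark FLNA (1.52), AHNAK (1.43) and ANXA1 (-2.20); 8 of the genes drawn lie above 0 and 3 below, with EGR1, CCN2 and HCLS1 placed on their side by the filter.

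Markers of the labelled cell type were partly listed. Of 12 plasma cell markers 3 were in the table, SDC1, ITGB7 and CD28, and all 3 were present in each library. Their summed value was 1719 to 1812 in the knockdown libraries, against 258 to 431 in the control libraries. Nearly all of that sum was ITGB7, with a mean of 1708 in the knockdown and 351 in the control. The means of SDC1 were 35.5 in the knockdown and 12.1 in the control, and those of CD28 were 20.0 and 6.26. Stromal cells express ANXA1 at high levels, and of 10 fibroblast and stroma markers COL1A1 and SPARC were listed. Their summed value was 0.07 to 0.68 in the knockdown libraries, against 8.42 to 24.9 in the control libraries. The sum was lower in the knockdown, as ANXA1 was, a direction shared by all 953 genes that the authors listed as lower. In the controls nearly all of it was SPARC, and the defining marker COL1A1 was below 1 in every library (0.14, 0.44 and 0.07 in the knockdown, 0.59, 0.47 and 0.72 in the control). CLDN4 was the listed gene of 5 markers of epithelial and packaging cells, at 1.29 to 1.48 in the knockdown libraries, against 1.85 to 3.17 in the control libraries. Of 4 endothelial markers PECAM1 was listed, at 4.29 to 5.90 in the knockdown libraries, against 0.55 to 1.84 in the control libraries. None of 8 myeloid and 6 T and NK cell markers was listed. The part of other cells in the ANXA1 difference was not tested, and in bulk RNA fewer cells with a transcript and less of it per cell cannot be told apart.

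**Figure D5:**
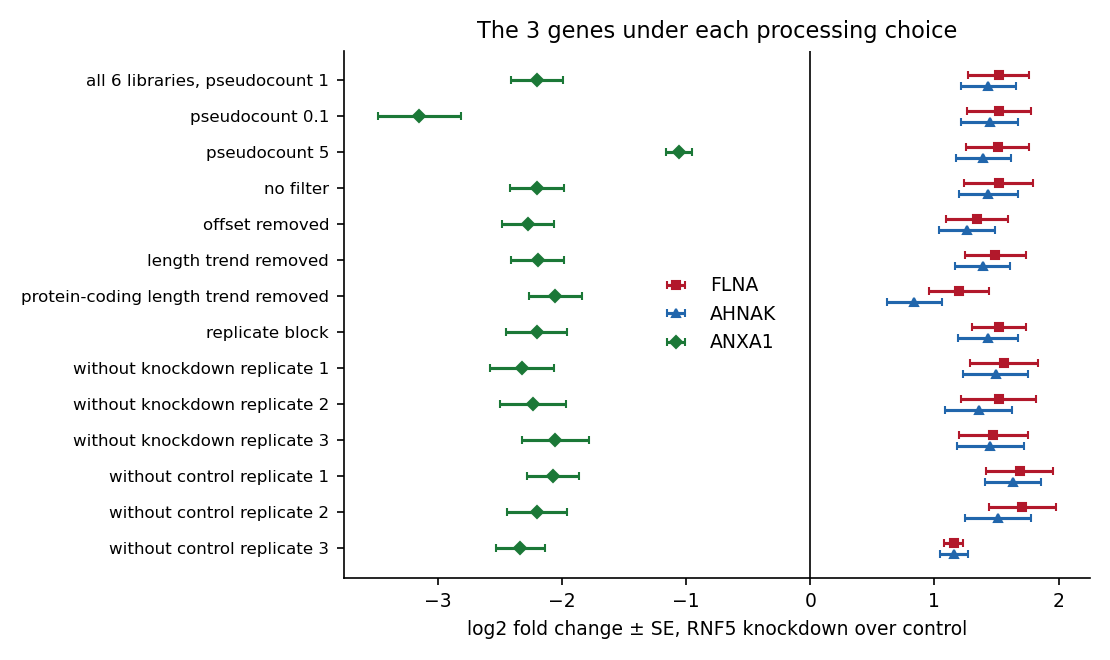
Log2 fold change (horizontal axis, RNF5 knockdown over control, bars are SE) of FLNA, AHNAK and ANXA1 under each processing choice. FLNA and AHNAK stay above 0 and ANXA1 below 0 with all 13 alternatives; the pseudocount moves ANXA1 (-3.15 to -1.06), and removal of the protein-coding length trend moves AHNAK (0.84).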

How the data were processed

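RNA of 6 LP-1 libraries (3 RNF5 knockdown, 3 non-target control, grouped by title) was compared. The authors deposited a normalized signal per library with 2 decimals, of a scale that is not given, for 1877 genes they had selected. They also deposited a fold ratio, its log2 value, and a raw and an adjusted p-value, from a test that is not given. Bowtie 0.12.2 and hg19 are named in the submitters' processing notes, without their step. Depth is unknown.

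The 1290 genes that reached 1 in no fewer than 3 libraries (587 did not) were fitted on log2(value + 1) with limma 3.58.1 (mean-variance trend) in R 4.3.3, group as the only term, Benjamini-Hochberg adjustment over all genes tested and a threshold of 0.05. The fit was tested on simulated data. Over 431 genes with both means of at least 5, log2 ratios of means exceeded the log2 values the authors deposited by a median of 0.173. Lengths (longest transcript) came from GENCODE 29 by identifier, for 1720 genes (91.6%). Alternatives were another pseudocount, no filter, removal of that offset or of a length trend, the replicate number as a block, and each library left out.

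The members, lists and tests were chosen with earlier results of these data known. Named genes were the members, RNF5, up to 6 listed genes per list and the 5 nearest profiles (symbols without dot or hyphen, mean of at least 1). Listed cell type markers were named as well. Of the genes this rule names, 2 are not reported here, though they are included in the counts.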

Additional observations from a re-analysis of the deposited data

How the results depend on the processing

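FLNA, AHNAK and ANXA1 kept their directions in all 13 alternatives. Leaving out 1 library gave log2 fold changes of 1.16 to 1.71 for FLNA, 1.16 to 1.63 for AHNAK and -2.33 to -2.05 for ANXA1, the value nearest 0 for FLNA and AHNAK being that without control 3. ANXA1 moved to -3.15 with a pseudocount of 0.1 and to -1.06 with 5, because its knockdown values are near the pseudocount. AHNAK moved to 0.84 with the length trend over protein-coding genes removed, an alternative chosen after the data were seen. That fit held protein-coding genes alone and called 811 genes, 386 of them higher, in place of 1260 and 718. The planned removal of the length trend over all tested genes with a length left AHNAK at 1.39. With no filter on low values, which adds genes to the test, 882 genes were lower in place of 542, and 19 list members were called in place of 12, with 7 lower in place of 3. With the median shift of 0.173 against the deposited fold changes taken out, FLNA was at 1.35, AHNAK at 1.26 and ANXA1 at -2.27. With the replicate block FLNA was at 1.52 (SE 0.22), AHNAK at 1.43 (SE 0.24) and ANXA1 at -2.20 (SE 0.25), and 1272 genes were called. Same-numbered libraries did not deviate together in these values (correlations across genes -0.165, -0.071 and -0.082, and 0 of 3 knockdown libraries correlated best with its own number). These correlations use selected genes and 3 libraries per group. They cannot show whether same-numbered libraries shared a culture or preparation, which the sources used here do not say. All 156 values of the 12 single list genes under the alternatives kept direction and side of the threshold. All 12 had been selected for a difference in the same libraries, and 97.7% of all genes tested were called, so this supports nothing. For the 3 that reached the minimum in 1 group only, the filter had fixed the direction as well. Depth is unknown, which limits what can be said of genes near 0.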
